A study of Drosophila melanogaster with 3 samples.

Results

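The glutathione transferase genes were read in 3 RNA libraries of larval fat body, the insect tissue that does the work of liver and adipose tissue, which differed in the dose of the Hippo kinase gene hpo. Every gene whose symbol is Gst followed by the class letter D, E, O, S, T or Z and a digit was taken, with the exception of GstE14, whose product acts in the synthesis of the moulting hormone ecdysone. This gave 34 of the 16509 genes in the count tables, of which 11 were of class D, 13 of class E, 3 of class O, 1 of class S, 4 of class T and 2 of class Z. The question was which members and which classes stood higher or lower when Hippo was overexpressed or knocked down in the fat body.

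The Dcg > Hpo library came from larvae in which Dcg-Gal4 drove a UAS transgene of hpo, the Dcg > Hpo-RNAi library from larvae in which the same driver drove an RNAi construct against hpo, and the Dcg/+ library from larvae with the driver alone. All 3 genotypes therefore carried Dcg-Gal4, and Dcg/+ carried no UAS construct of its own. The driver is active in the fat body and is known to be active in blood cells as well. Each library was made from a pool of dissected fat bodies, and the sex of the larvae is not given in the sources used here. The labels call the tissue larval fat tissue, although their extraction note names adult heads. Each genotype had 1 library, so no value below has a replicate check, and no test between genotypes was made. Both comparisons used the same Dcg/+ library, so their ratios share its counting error and any peculiarity of that sample.

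Glutathione transferases join the tripeptide glutathione to reactive molecules, which makes these soluble and ready for export. In insects the Delta and Epsilon classes (D and E) have expanded into clusters of neighbouring genes and are best known for handling insecticides and plant toxins. The Omega (O), Sigma (S), Theta (T) and Zeta (Z) classes are shared with mammals and include enzymes of pigment synthesis, of lipid peroxide clearance and of tyrosine breakdown.

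Levels are given in counts, or as counts per 1000000 counts of the library (CPM). The libraries held 23227940 counts in Dcg > Hpo, 23524682 in Dcg > Hpo-RNAi and 21918672 in Dcg/+. The hpo gene itself had 11568 counts in Dcg > Hpo, 182 in Dcg > Hpo-RNAi and 289 in Dcg/+, which is 37.8 times its Dcg/+ share (95% interval 33.6 to 42.6) in the overexpression library and 0.587 times (0.485 to 0.709) in the knockdown library. The 10 larval fat body markers, among them the larval serum protein genes, took 19.4% of all counts in Dcg > Hpo, 18.4% in Dcg > Hpo-RNAi and 18.8% in Dcg/+. Markers of other tissues differed far more. The 14 midgut markers summed to 27570 counts in Dcg > Hpo, 6695 in Dcg > Hpo-RNAi and 5018 in Dcg/+, and the 8 Malpighian tubule markers to 2079 in Dcg > Hpo, 291 in Dcg > Hpo-RNAi and 487 in Dcg/+. The 9 muscle markers summed to 27905 counts in Dcg > Hpo, 1373 in Dcg > Hpo-RNAi and 3024 in Dcg/+, and the 12 testis markers to 211 in Dcg > Hpo, 13915 in Dcg > Hpo-RNAi and 12604 in Dcg/+. Against Dcg/+, Dcg > Hpo was thus 5.18 times as high in midgut markers, 4.03 times in tubule markers and 8.71 times in muscle markers, and stood at 0.0158 times in testis markers, of which c-cup, aly, can and sa were at 0. Neuron markers summed to 7526 counts in Dcg > Hpo, 5821 in Dcg > Hpo-RNAi and 5686 in Dcg/+. Blood cell markers summed to 16755 counts in Dcg > Hpo, 8173 in Dcg > Hpo-RNAi and 13015 in Dcg/+, and salivary gland markers to 582830 in Dcg > Hpo, 16201 in Dcg > Hpo-RNAi and 1126226 in Dcg/+. Of the measured markers, Dcg > Hpo had 7 of 11 midgut genes called higher and 2 lower. Tubule had 5 of 7 higher and 1 lower, muscle 9 of 9 higher, and blood cell 3 of 8 higher. Neuron had 6 of 8 higher with a median log2 ratio of 2.41. Larval fat body had 2 of 10 higher, salivary gland 4 of 8 lower and testis 12 of 12 lower. Over every measured gene, the shares in this comparison were 18.2% higher and 22.8% lower. The sum of the neuron markers was 1.25 times its Dcg/+ share, and Syt1, the most abundant of them, had 2553 counts in Dcg > Hpo, 4143 in Dcg > Hpo-RNAi and 4454 in Dcg/+. In Dcg > Hpo-RNAi, 7 of 8 salivary gland genes, 5 of 9 muscle genes and 3 of 6 tubule genes were called lower, and none of these higher. Midgut had 4 of 10 genes higher and 1 lower, neuron 1 of 8 higher and 3 lower, and blood cell 1 of 8 each way. Larval fat body had 1 of 10 genes higher, and none of the 12 testis genes was called. Over all measured genes, 7.81% were called higher and 9.09% lower there. In bulk RNA, fewer cells of a type and less RNA per cell cannot be told apart.

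**Figure D1:**
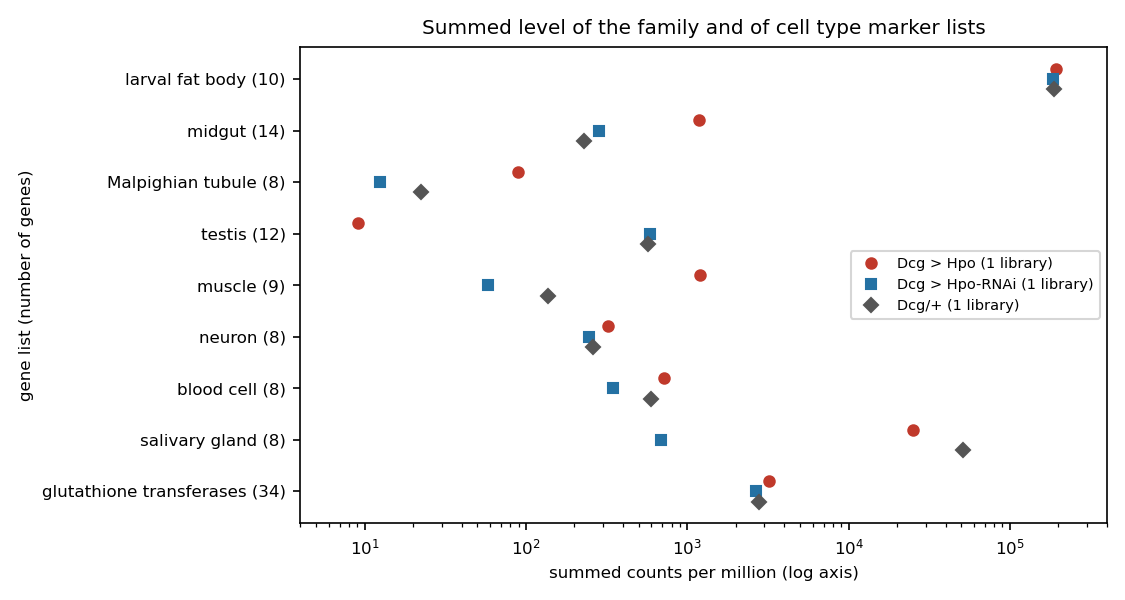
Summed CPM (log axis) of the 34 glutathione transferases and of 8 lists of cell type markers, with 1 point for each library. Sums of fat body markers lie close together in the 3 libraries. Midgut, Malpighian tubule and muscle sums are highest in Dcg > Hpo, testis sums lowest there, and salivary gland sums lowest in Dcg > Hpo-RNAi.

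As a family the glutathione transferases took a small and similar part of each library, and a few members made up most of it. The 34 genes summed to 74263 counts in Dcg > Hpo, 62514 in Dcg > Hpo-RNAi and 61041 in Dcg/+, that is 0.320% of all counts in Dcg > Hpo, 0.266% in Dcg > Hpo-RNAi and 0.278% in Dcg/+. Ratios below divide a gene's share of its library by its share of the Dcg/+ library and carry an exact 95% interval that covers counting error only. The family ratio was 1.15 (1.14 to 1.16) with Hpo overexpression and 0.954 (0.944 to 0.965) with Hpo knockdown. GstE12, of the Epsilon class, was the most abundant member with 35762 counts in Dcg > Hpo, 25609 in Dcg > Hpo-RNAi and 28301 in Dcg/+, or 1539.6 CPM in Dcg > Hpo, 1089 in Dcg > Hpo-RNAi and 1291 in Dcg/+, and ranked 95th among all genes in Dcg > Hpo, 119th in Dcg > Hpo-RNAi and 105th in Dcg/+. GstD1 and then GstS1 came next in Dcg > Hpo, GstS1 and then GstE3 in Dcg > Hpo-RNAi, where GstD1 ranked 4th, and GstS1 and then GstD1 in Dcg/+. Together GstE12, GstS1 and GstD1 held 71.6% of the family's counts in Dcg > Hpo, 65.9% in Dcg > Hpo-RNAi and 71.9% in Dcg/+. The kit reads transcripts from their 3′ ends, so counts were not divided by transcript length when members were set beside each other.

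**Figure D2:**
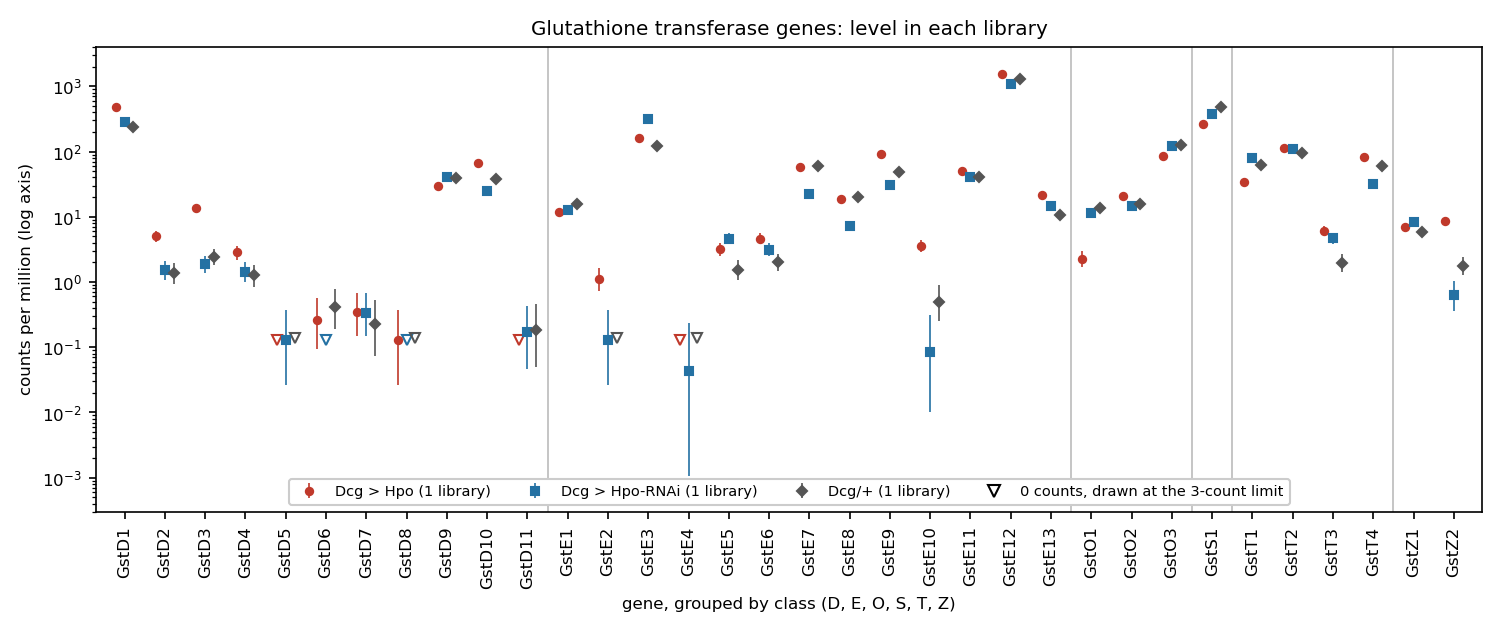
CPM (log axis) of each of the 34 genes in the 3 libraries, with exact Poisson 95% intervals that cover counting error only, and open triangles at the 3-count limit for genes with 0 counts. Levels run from 0 counts to more than 1000 CPM, and GstE12 stands at the top in each library.

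At the low end, 6 members (GstD5, GstD6, GstD7, GstD8, GstD11 and GstE4) stayed under 10 counts in every library and were not compared. Their highest count was 9, for GstD6 in Dcg/+. The limit set by a count of 0 (3 counts) was 0.129 CPM in Dcg > Hpo, 0.128 CPM in Dcg > Hpo-RNAi and 0.137 CPM in Dcg/+, so these genes were at or near the detection limit of the libraries. GstE2 reached 10 counts only in Dcg > Hpo and entered that comparison alone. With 0 counts in Dcg/+, it could pass the minimum only by standing higher in Dcg > Hpo, so its call followed from the filter. This left 28 members for Dcg > Hpo and 27 for Dcg > Hpo-RNAi.

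A member was called higher or lower where its ratio was at least 2, or at most 0.5, and the interval left out 1. In Dcg > Hpo, 11 of 28 measured members were called higher, which is 39.3%, where 18.2% of all measured genes were. The 11 include GstE2, whose call followed from the count minimum. Only GstO1 was called lower, 3.57% of the members, where 22.8% of all genes were. In Dcg > Hpo-RNAi, 3 of 27 members were called higher (11.1%, beside 7.81% of all genes) and 4 were called lower (14.8%, beside 9.09%). Over the 27 members with a mean of at least 10 counts, the median log2 ratio was 0.45 with Hpo overexpression and -0.04 with Hpo knockdown, against 0.08 and 0.07 over the 11249 genes of all kinds that met the same minimum. Scaling by trimmed mean of M-values (TMM) multiplied every Dcg > Hpo ratio by 0.885 and moved the median of all measured genes to -0.08 on the log2 scale; it left 7 members called higher and 3 called lower. Over all measured genes TMM gave 15.7% higher and 24.9% lower. The calls lost under TMM were those of GstD1, GstD4, GstE5 and GstE13, and the calls gained were those of GstS1 and GstT1.

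**Figure D3:**
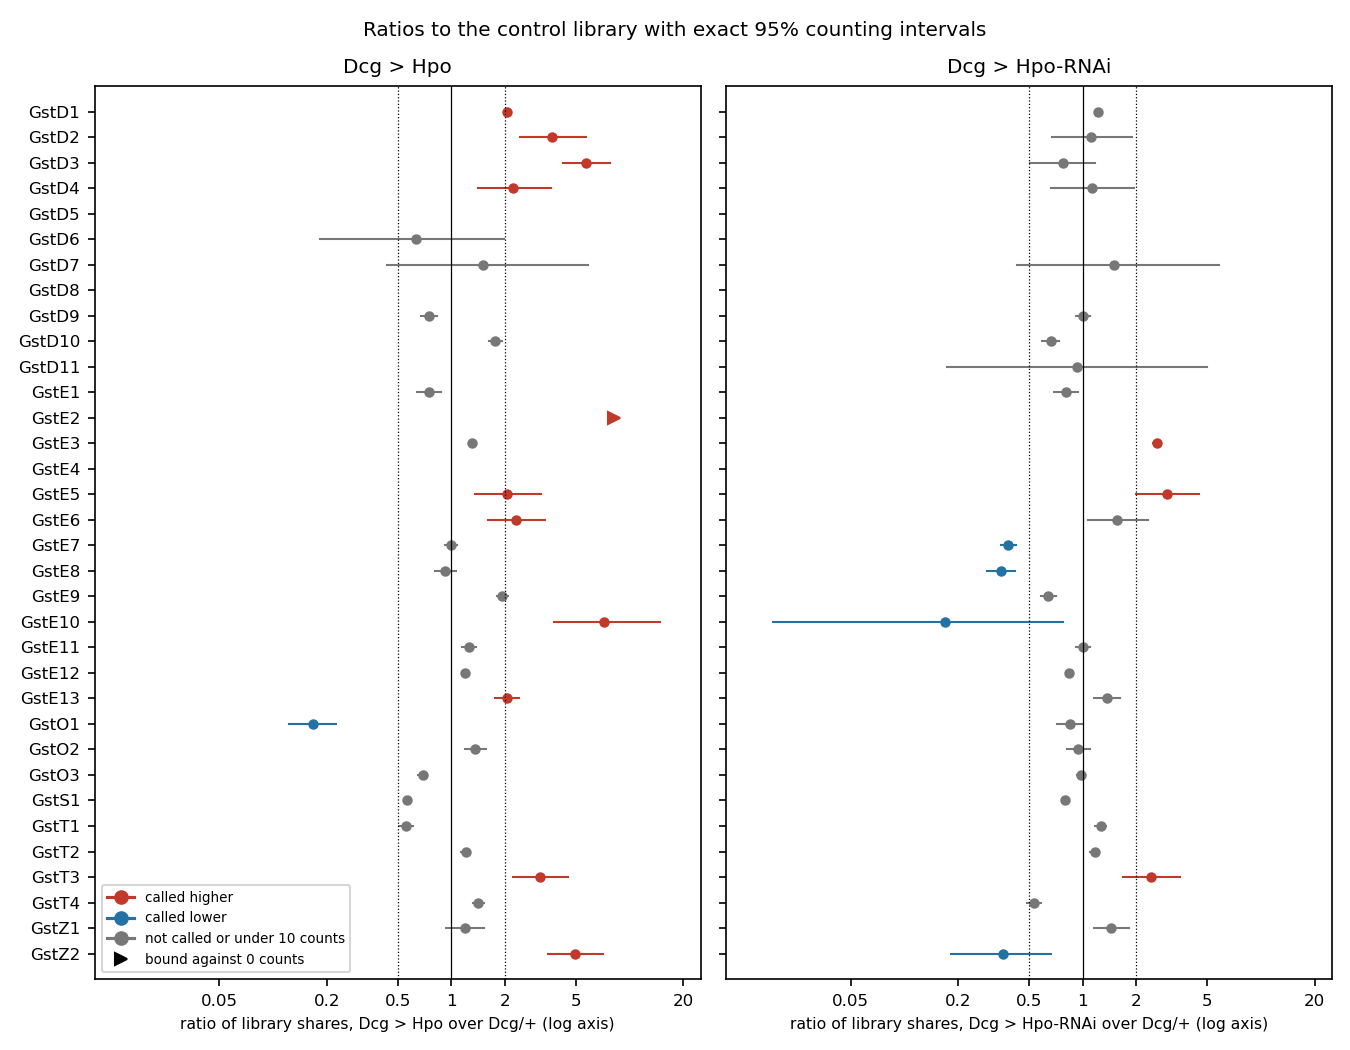
Ratio of library shares to Dcg/+ (log axis) for each member, Dcg > Hpo on the left and Dcg > Hpo-RNAi on the right, with exact 95% intervals for counting error, dotted lines at 2-fold and an arrowhead for a bound against 0 counts. In Dcg > Hpo 11 members are called higher and GstO1 lower; in Dcg > Hpo-RNAi 3 are called higher and 4 lower.

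The class sums differed in direction in Dcg > Hpo, with classes D, E and Z above Dcg/+ and classes O and S below it. Class D summed to 601 CPM in Dcg > Hpo, 357 CPM in Dcg > Hpo-RNAi and 320 CPM in Dcg/+, with a ratio of 1.88 (1.83 to 1.94) for overexpression and 1.12 (1.08 to 1.15) for knockdown. Class E, the largest by level, summed to 1967 CPM in Dcg > Hpo, 1542 in Dcg > Hpo-RNAi and 1612 in Dcg/+, with ratios of 1.22 (1.20 to 1.24) for overexpression and 0.957 (0.943 to 0.971) for knockdown. Class O summed to 109 CPM in Dcg > Hpo, 148 in Dcg > Hpo-RNAi and 153 in Dcg/+, with ratios of 0.711 (0.675 to 0.749) for overexpression and 0.961 (0.916 to 1.01) for knockdown. The single Sigma gene had the lowest class ratio in both comparisons. Class T differed little, at 238 CPM in Dcg > Hpo, 225 in Dcg > Hpo-RNAi and 218 in Dcg/+, and its overexpression ratio of 1.09 (1.05 to 1.13) fell below 1 under TMM (0.966), median-of-ratios (0.997) and quantile (0.938) scaling. Class Z was rare, at 15.6 CPM in Dcg > Hpo, 9.01 in Dcg > Hpo-RNAi and 7.57 in Dcg/+, and its ratio was 2.06 (1.71 to 2.49) with Hpo overexpression and 1.19 (0.967 to 1.47) with Hpo knockdown. A class sum follows its most abundant gene: without GstD1, class D stood at 1.42 for overexpression and 0.844 for knockdown, and without GstE12, class E stood at 1.33 for overexpression and 1.42 for knockdown, so that both knockdown ratios changed side.

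**Figure D4:**
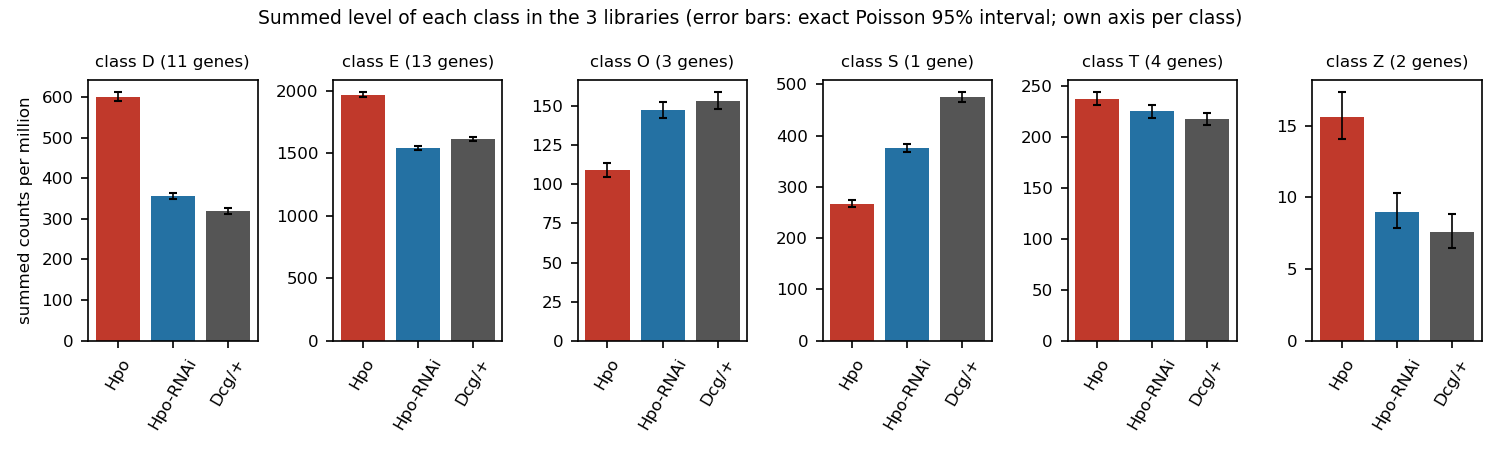
Summed CPM of each class in Dcg > Hpo, Dcg > Hpo-RNAi and Dcg/+ (1 library each, each class on its own axis from 0), with exact Poisson 95% intervals for counting error. Classes D and Z are highest in Dcg > Hpo, and classes O and S are lowest there.

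The Delta genes lie side by side on chromosome arm 3R, between 12364776 and 12385624 (dm6 coordinates, 20.8 kb), with GstD10, GstD9 and GstD1 on the minus strand and the other 8 on the plus strand. GstD1, the Delta enzyme known for its action on the insecticide DDT and a common reporter of the fly's Nrf2-type stress response, carried most of the class. It had 11203 counts in Dcg > Hpo, 6725 in Dcg > Hpo-RNAi and 5169 in Dcg/+, or 482 CPM in Dcg > Hpo, 286 in Dcg > Hpo-RNAi and 236 in Dcg/+. Its ratio was 2.05 (1.98 to 2.11) in Dcg > Hpo, which passed the 2-fold limit on library totals and did not under TMM, median-of-ratios, quantile or fat body marker scaling. In Dcg > Hpo-RNAi its ratio was 1.21 (1.17 to 1.26) and was not called.

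GstD3 had the highest ratio of its class in Dcg > Hpo. It had 319 counts in Dcg > Hpo, 44 in Dcg > Hpo-RNAi and 53 in Dcg/+, with ratios of 5.68 (4.24 to 7.75) for overexpression and 0.774 (0.507 to 1.18) for knockdown. GstD2, its neighbour 363 bases upstream, had 116 counts in Dcg > Hpo, 36 in Dcg > Hpo-RNAi and 30 in Dcg/+, with ratios of 3.65 (2.42 to 5.65) for overexpression and 1.12 (0.670 to 1.88) for knockdown. GstD4, which follows 286 bases downstream of GstD3, had 66 counts in Dcg > Hpo, 34 in Dcg > Hpo-RNAi and 28 in Dcg/+, with ratios of 2.22 (1.41 to 3.60) for overexpression and 1.13 (0.666 to 1.94) for knockdown. All 3 were called higher in Dcg > Hpo on library totals, although GstD4 lay at 1.97 under TMM and was then not called, and none was called in Dcg > Hpo-RNAi, whose counts lay close to those of Dcg/+. The remaining plus-strand genes, GstD5 to GstD8 and GstD11, were close to the detection limit. GstD6 had 6 counts in Dcg > Hpo, 0 in Dcg > Hpo-RNAi and 9 in Dcg/+, and GstD7 had 8 in Dcg > Hpo, 8 in Dcg > Hpo-RNAi and 5 in Dcg/+. GstD5 had 3 counts in Dcg > Hpo-RNAi alone, GstD8 had 3 in Dcg > Hpo alone, and GstD11 had 0 in Dcg > Hpo and 4 in each of the other 2. In sum the 8 plus-strand genes had 518 counts in Dcg > Hpo and 129 in each of the other libraries, with a ratio of 3.79 (3.12 to 4.63) for overexpression and 0.932 (0.724 to 1.20) for knockdown.

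The minus-strand genes were more abundant and went different ways. GstD10 had 1549 counts in Dcg > Hpo, 591 in Dcg > Hpo-RNAi and 832 in Dcg/+, with ratios of 1.76 (1.61 to 1.91) for overexpression and 0.662 (0.595 to 0.736) for knockdown. GstD9, which lies between GstD10 and GstD1, had 691 counts in Dcg > Hpo, 942 in Dcg > Hpo-RNAi and 874 in Dcg/+, with ratios of 0.746 (0.674 to 0.825) for overexpression and 1.0 (0.915 to 1.10) for knockdown. GstD9 was thus lowest in the overexpression library, in which both of its neighbours were highest, although neither GstD9 nor GstD10 passed the 2-fold limit in either comparison.

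Of the 13 Epsilon genes, GstE1 to GstE10 form a cluster on chromosome arm 2R between 18396638 and 18409835 (13.2 kb), with GstE10 on the minus strand and the others on the plus strand, whereas GstE11, GstE12 and GstE13 lie elsewhere on the same arm. In Dcg > Hpo, GstE2, GstE5, GstE6, GstE10 and GstE13 were called higher. GstE2, which shares its name with a mosquito enzyme that breaks down DDT, had 26 counts in Dcg > Hpo, 3 in Dcg > Hpo-RNAi and 0 in Dcg/+. It was at least 8.18-fold higher in Dcg > Hpo, taken against the limit of 3 counts in the Dcg/+ library, and the exact 95% interval of its ratio, which also carries the counting error of the 26 counts, began at 6.19. GstE10 had 83 counts in Dcg > Hpo, 2 in Dcg > Hpo-RNAi and 11 in Dcg/+, with ratios of 7.12 (3.78 to 14.8) with Hpo overexpression and 0.169 (0.0182 to 0.776) with Hpo knockdown, and was called in opposite directions in the 2 comparisons. The knockdown call of GstE10 rested on 2 counts against 11. GstE6 had 107 counts in Dcg > Hpo, 74 in Dcg > Hpo-RNAi and 44 in Dcg/+, with ratios of 2.29 (1.60 to 3.34) for overexpression and 1.57 (1.06 to 2.33) for knockdown.

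GstE3 and GstE5 were the Epsilon genes called higher in Dcg > Hpo-RNAi. GstE3 had 3722 counts in Dcg > Hpo, 7470 in Dcg > Hpo-RNAi and 2679 in Dcg/+, or 160 CPM in Dcg > Hpo, 318 in Dcg > Hpo-RNAi and 122 in Dcg/+. Its ratio was 2.60 (2.49 to 2.72) in Dcg > Hpo-RNAi and 1.31 (1.25 to 1.38) in Dcg > Hpo, and it stayed called for knockdown even where the whole interval had to lie past 2-fold. GstE5, 2 genes further along the cluster, had 74 counts in Dcg > Hpo, 108 in Dcg > Hpo-RNAi and 34 in Dcg/+ and was called higher in both comparisons on library totals, with ratios of 2.05 (1.35 to 3.18) for Dcg > Hpo and 2.96 (2.0 to 4.49) for Dcg > Hpo-RNAi. Its Dcg > Hpo ratio was 1.82 under TMM, 1.88 under median-of-ratios and 1.99 under fat body marker scaling, and was then not called. Under quantile scaling, where a pseudocount of 1 was added and a call needed no interval, it was 2.71 and stayed called. GstE4 lies between GstE3 and GstE5 and had 0 counts in Dcg > Hpo, 1 in Dcg > Hpo-RNAi and 0 in Dcg/+. The cluster as a whole summed to 8244 counts in Dcg > Hpo, 9383 in Dcg > Hpo-RNAi and 5909 in Dcg/+, with ratios of 1.32 (1.27 to 1.36) for overexpression and 1.48 (1.43 to 1.53) for knockdown. Without GstE3 the overexpression ratio stayed at 1.32 (1.26 to 1.38) while the knockdown ratio was 0.552 (0.521 to 0.584), so that the knockdown sum followed that gene.

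The last genes of the cluster stood low in Dcg > Hpo-RNAi. GstE7 had 1367 counts in Dcg > Hpo, 533 in Dcg > Hpo-RNAi and 1295 in Dcg/+, with a knockdown ratio of 0.383 (0.346 to 0.425) and an overexpression ratio of 0.996 (0.923 to 1.08). GstE8, which 145 bases separate from GstE7, had 437 counts in Dcg > Hpo, 167 in Dcg > Hpo-RNAi and 447 in Dcg/+, with ratios of 0.348 (0.290 to 0.417) in Dcg > Hpo-RNAi and 0.923 (0.807 to 1.05) in Dcg > Hpo. Both were called lower for knockdown, and neither interval for overexpression left out 1. GstE9, 92 bases further on, had 2152 counts in Dcg > Hpo, 723 in Dcg > Hpo-RNAi and 1051 in Dcg/+, with ratios of 1.93 (1.79 to 2.08) with Hpo overexpression and 0.641 (0.582 to 0.705) with Hpo knockdown, under the 2-fold limit in each. GstE1, at the other end, had 276 counts in Dcg > Hpo, 302 in Dcg > Hpo-RNAi and 348 in Dcg/+ and stayed between 0.748 (0.637 to 0.879) with Hpo overexpression and 0.809 (0.691 to 0.946) with Hpo knockdown. With gaps this short, and with the authors' use of strand and treatment of shared reads not given, reads that ran past the end of one gene or matched a near-identical neighbour could have been counted for either, and this was not tested. Salivary gland markers stood at 0.0134 times their Dcg/+ share in Dcg > Hpo-RNAi, and muscle markers at 0.423 times. Their part in the knockdown ratios of the cluster genes was not tested.

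**Figure D5:**
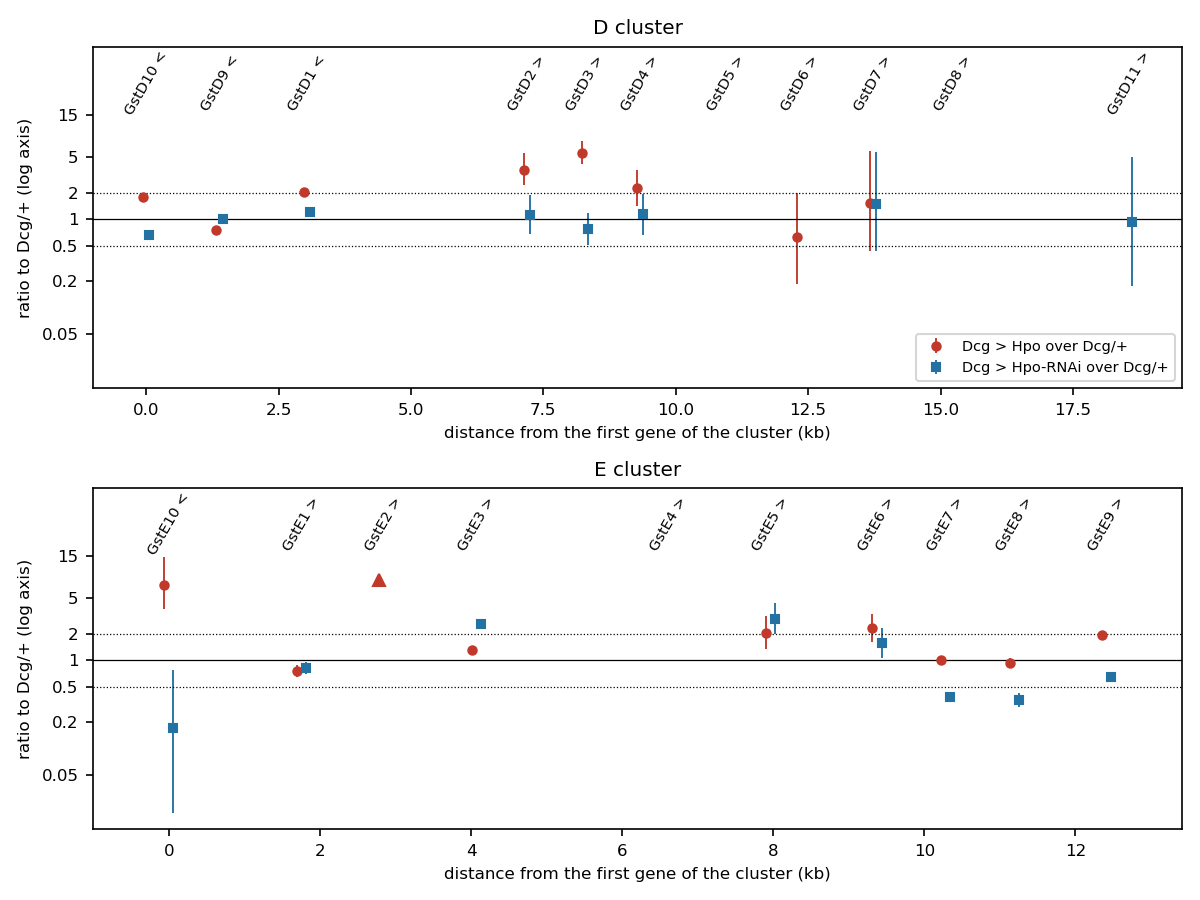
Ratio to Dcg/+ (log axis) of each member along the D cluster and the E cluster, by distance of its lower coordinate from that of the first gene (kb), with exact 95% intervals for counting error, dotted lines at 2-fold, an upward triangle for the lower bound of GstE2, and > or < for the strand. In Dcg > Hpo, GstD2, GstD3 and GstD4 stand together above 2; in Dcg > Hpo-RNAi, GstE3 and GstE5 stand above 2, while GstE7, GstE8 and GstE10 stand below 0.5.

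Outside the cluster, GstE12 differed little for so abundant a gene, with ratios of 1.19 (1.17 to 1.21) with Hpo overexpression and 0.843 (0.829 to 0.858) with Hpo knockdown. GstE11 had 1170 counts in Dcg > Hpo, 949 in Dcg > Hpo-RNAi and 879 in Dcg/+, with ratios of 1.26 (1.15 to 1.37) for overexpression and 1.01 (0.917 to 1.10) for knockdown. GstE13 had 506 counts in Dcg > Hpo, 342 in Dcg > Hpo-RNAi and 233 in Dcg/+, and its overexpression ratio of 2.05 (1.75 to 2.40) was called on library totals and lay below 2 under TMM, median-of-ratios, quantile and fat body marker scaling. Its knockdown ratio was 1.37 (1.15 to 1.62). The 3 genes summed to 37438 counts in Dcg > Hpo, 26900 in Dcg > Hpo-RNAi and 29413 in Dcg/+.

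The Omega genes include relatives of sepia (se), which makes a precursor of the red eye pigments, and lie together on chromosome arm 3L. GstO1, at 8523742 to 8524866, was the member that stood lowest in Dcg > Hpo. It had 53 counts in Dcg > Hpo, 273 in Dcg > Hpo-RNAi and 299 in Dcg/+, with ratios of 0.167 (0.122 to 0.225) for overexpression and 0.851 (0.719 to 1.01) for knockdown. Testis markers were lowest in the same library, with a sum of 211 counts against 13915 in Dcg > Hpo-RNAi and 12604 in Dcg/+, and their part in the GstO1 value was not tested. GstO3, the most abundant Omega gene, had 1990 counts in Dcg > Hpo, 2852 in Dcg > Hpo-RNAi and 2725 in Dcg/+, with ratios of 0.689 (0.650 to 0.730) for overexpression and 0.975 (0.925 to 1.03) for knockdown. GstO2 had 491 counts in Dcg > Hpo, 345 in Dcg > Hpo-RNAi and 340 in Dcg/+, with ratios of 1.36 (1.18 to 1.57) for overexpression and 0.945 (0.812 to 1.10) for knockdown. It overlaps se by 61 bases on the other strand, and se itself had 127 counts in Dcg > Hpo, 145 in Dcg > Hpo-RNAi and 87 in Dcg/+.

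GstS1, the only Sigma gene, is known for joining glutathione to 4-hydroxynonenal, a product of lipid peroxidation. It had 6200 counts in Dcg > Hpo, 8859 in Dcg > Hpo-RNAi and 10409 in Dcg/+, or 267 CPM in Dcg > Hpo, 377 in Dcg > Hpo-RNAi and 475 in Dcg/+. Both ratios lay below 1, at 0.562 (0.545 to 0.580) with Hpo overexpression and 0.793 (0.771 to 0.816) with Hpo knockdown, and neither reached 0.5 on library totals; under TMM the overexpression ratio was 0.497 and was called lower. GstS1 is also abundant in fly muscle. The 9 muscle markers stood at 8.71 times their Dcg/+ share in Dcg > Hpo and at 0.423 times in Dcg > Hpo-RNAi, and their part in the GstS1 values was not tested.

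The Theta genes differed from one another more than their sum shows. GstT1 had 799 counts in Dcg > Hpo, 1841 in Dcg > Hpo-RNAi and 1362 in Dcg/+, with ratios of 0.554 (0.507 to 0.605) for overexpression and 1.26 (1.17 to 1.35) for knockdown, and was called lower in Dcg > Hpo under TMM and quantile scaling. GstT4, on the X chromosome, ran the other way with 1936 counts in Dcg > Hpo, 745 in Dcg > Hpo-RNAi and 1297 in Dcg/+, with ratios of 1.41 (1.31 to 1.51) for overexpression and 0.535 (0.488 to 0.586) for knockdown. Between Dcg > Hpo and Dcg > Hpo-RNAi directly, the share of GstT1 had a ratio of 0.440 (0.404 to 0.478) and that of GstT4 a ratio of 2.63 (2.42 to 2.87). GstT3, also on the X chromosome, was rare and was called higher in both comparisons, with 143 counts in Dcg > Hpo, 111 in Dcg > Hpo-RNAi and 43 in Dcg/+, with ratios of 3.14 (2.22 to 4.52) for overexpression and 2.41 (1.68 to 3.5) for knockdown. GstT2, which starts 108 bases downstream of GstT1, had 2645 counts in Dcg > Hpo, 2606 in Dcg > Hpo-RNAi and 2074 in Dcg/+, with ratios of 1.20 (1.14 to 1.28) for overexpression and 1.17 (1.10 to 1.24) for knockdown. It overlaps CG12926 by 223 bases at its 3′ end, the widest overlap of any member, and CG12926 had 3762 counts in Dcg > Hpo, 3564 in Dcg > Hpo-RNAi and 3086 in Dcg/+.

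Zeta enzymes are known as maleylacetoacetate isomerases, which act late in the breakdown of tyrosine, and both fly genes lie next to each other on chromosome arm 3R. GstZ2, at 9456815 to 9460652, had 203 counts in Dcg > Hpo, 15 in Dcg > Hpo-RNAi and 39 in Dcg/+. It was called higher in Dcg > Hpo at 4.91 (3.47 to 7.11) and lower in Dcg > Hpo-RNAi at 0.358 (0.184 to 0.665), and its share was 13.7 times (8.12 to 24.9) as high in Dcg > Hpo as in Dcg > Hpo-RNAi. GstZ1 had 160 counts in Dcg > Hpo, 197 in Dcg > Hpo-RNAi and 127 in Dcg/+, with ratios of 1.19 (0.936 to 1.51) for overexpression and 1.45 (1.15 to 1.82) for knockdown. GstZ2 made up 55.9% of the class in Dcg > Hpo, 7.08% in Dcg > Hpo-RNAi and 23.5% in Dcg/+, so that the more abundant Zeta gene was GstZ2 in the overexpression library and GstZ1 in the other 2. The sum of the Malpighian tubule markers had the same order over the libraries as GstZ2 and GstE10, with 2079 counts in Dcg > Hpo, 291 in Dcg > Hpo-RNAi and 487 in Dcg/+, and with 2 of the 8 markers at 0 in Dcg > Hpo-RNAi and in Dcg/+. A single marker, the urate oxidase gene Uro, gave 1027 of these counts in Dcg > Hpo, 0 in Dcg > Hpo-RNAi and 14 in Dcg/+, and not every marker followed this order, since 1 of the 7 measured was called lower in Dcg > Hpo. The order was not particular to tubule markers: by CPM, the sums of muscle, neuron, blood cell and larval fat body markers had it too. The part of any of these tissues in the GstZ2 and GstE10 values was not tested. Nor was that of the tubule, midgut and muscle markers in the members called higher in Dcg > Hpo.

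Of the other measured members, 8 in Dcg > Hpo had ratios whose interval lay wholly above 1 without a call, 5 had one wholly below 1, and 3 (GstE7, GstE8 and GstZ1) had one that held 1. In Dcg > Hpo-RNAi these were 6, 6 and 8. Overlap with another annotated gene touched 7 members, in each case on the opposite strand. GstE10 and GstE1 overlap by 127 bases away from either 3′ end. GstE9 overlaps imd by 40 bases, GstE12 overlaps CG3894 by 33 and GstE13 overlaps CG18659 by 6, each at the 3′ end. The overlapping genes imd, CG3894 and CG18659 had ratios of 1.13, 0.875 and 0.854 in Dcg > Hpo and 0.836, 1.04 and 1.01 in Dcg > Hpo-RNAi, none of them past 2-fold.

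The first and limiting step of glutathione synthesis is run by glutamate-cysteine ligase, and glutathione synthetase completes the molecule. Gclc, the catalytic subunit of the ligase, had 284 counts in Dcg > Hpo, 116 in Dcg > Hpo-RNAi and 161 in Dcg/+, with ratios of 1.66 (1.37 to 2.03) for overexpression and 0.671 (0.524 to 0.858) for knockdown. Gclm, its modifier subunit, had 1194 counts in Dcg > Hpo, 1070 in Dcg > Hpo-RNAi and 756 in Dcg/+, with ratios of 1.49 (1.36 to 1.63) for overexpression and 1.32 (1.20 to 1.45) for knockdown. Neither subunit was called. Of 10 measured genes of glutathione synthesis and turnover, CG4829, CG17636 and CG6188 were called higher in Dcg > Hpo, at 4.01, 3.81 and 2.33, which is 30% of the list, beside 18.2% of all genes, and none was called lower, beside 22.8%. In Dcg > Hpo-RNAi, CG4829 and CG6188 were called lower at 0.0666 and 0.319, or 20% of the list, beside 9.09% of all genes. None was called higher, beside 7.81%. The CG4829 call rested on 2 counts against 28 in Dcg/+, with an interval of 0.00768 to 0.264, and passed the minimum only through Dcg/+. CG6188 is the glycine N-methyltransferase gene, which uses up the methyl donor S-adenosylmethionine.

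Other proteins with a glutathione transferase fold or activity were listed separately. Of 8 measured, gfzf, CG33178 and Clic were called higher in Dcg > Hpo, at 6.34 (2.85 to 16.6), 5.26 (2.95 to 10.1) and 2.86 (2.32 to 3.56), which is 37.5%, beside 18.2% of all genes. None was called lower, beside 22.8%. The gfzf gene, which joins a transferase domain to zinc fingers, had 47 counts in Dcg > Hpo, 21 in Dcg > Hpo-RNAi and 7 in Dcg/+ and was also called higher in Dcg > Hpo-RNAi at 2.80 (1.14 to 7.78). It was the only gene of the 8 called there (12.5% higher and 0% lower, beside 7.81% and 9.09% of all genes). With 7 counts in Dcg/+, gfzf passed the minimum only by standing higher in the other library. The direction of both its calls thus followed from the filter. Mgstl, a microsomal glutathione transferase, had 1222 counts in Dcg > Hpo, 808 in Dcg > Hpo-RNAi and 1188 in Dcg/+, with ratios of 0.971 (0.895 to 1.05) for overexpression and 0.634 (0.579 to 0.694) for knockdown.

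The Nrf2 counterpart cnc had 4777 counts in Dcg > Hpo, 4557 in Dcg > Hpo-RNAi and 4455 in Dcg/+, with ratios of 1.01 (0.971 to 1.05) for overexpression and 0.953 (0.914 to 0.993) for knockdown, and its inhibitor Keap1 had 108 counts in Dcg > Hpo, 130 in Dcg > Hpo-RNAi and 140 in Dcg/+ with ratios of 0.728 (0.561 to 0.942) for overexpression and 0.865 (0.676 to 1.11) for knockdown. Of 8 listed regulators of the oxidative stress response, cnc and Keap1 among them, only puc was called. This gene, whose phosphatase is switched on by and dampens JNK signalling, lay at 2.05 (1.77 to 2.38) in Dcg > Hpo, just past the 2-fold limit. That is 12.5% of the list called higher and 0% called lower, beside 18.2% and 22.8% of all genes. None of the 8 was called in Dcg > Hpo-RNAi, where 7.81% of all genes were called higher and 9.09% lower.

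The list of thioredoxin, glutaredoxin and peroxidase genes also held superoxide dismutase and catalase genes, so it is wider than thiol defence. None of the superoxide dismutase and catalase genes was called. No gene of the whole list was called higher in either comparison. Of 20 measured, 5 were called lower in Dcg > Hpo (25%, beside 22.8% of all genes), namely Trxr-2, TrxT, dhd, Grx-1 and Prx2540-1. TrxT, the testis thioredoxin, had 4 counts in Dcg > Hpo, 334 in Dcg > Hpo-RNAi and 264 in Dcg/+. Grx-1 had 4 counts in Dcg > Hpo, 314 in Dcg > Hpo-RNAi and 168 in Dcg/+, and Trxr-2 had 0 in Dcg > Hpo, 31 in Dcg > Hpo-RNAi and 40 in Dcg/+. TrxT, dhd, Grx-1 and Trxr-2 were under 10 counts in Dcg > Hpo and passed the minimum only through Dcg/+. In the same libraries all 12 testis markers were called lower in Dcg > Hpo. The peroxiredoxin gene Prx2540-1 had 203 counts in Dcg > Hpo, 513 in Dcg > Hpo-RNAi and 1200 in Dcg/+, with ratios of 0.160 (0.137 to 0.185) for overexpression and 0.398 (0.358 to 0.442) for knockdown. In Dcg > Hpo-RNAi, Jafrac1, Prx2540-1 and Prx2540-2 were called lower (15%, beside 9.09% of all genes). The part of testis RNA in these values was not tested.

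Of 17 measured genes of the earlier and later steps of detoxification, Cyp6w1, Cyp28a5, Mdr50 and Mdr65 were called higher in Dcg > Hpo, which is 23.5%, beside 18.2% of all genes. Mdr65, with 56 counts in Dcg > Hpo and 7 in Dcg/+, passed the minimum only through Dcg > Hpo. Ugt86Da was called lower in Dcg > Hpo (5.88%, beside 22.8%). In Dcg > Hpo-RNAi, of 17 measured, Cyp6a8 was called higher (5.88%, beside 7.81%) and Cyp6a2, Cyp6w1 and Ugt86Da were called lower (17.6%, beside 9.09%). Cyp6a8 had 15 counts in Dcg > Hpo-RNAi and 0 in Dcg/+, so its call followed from the count minimum. Cyp6a2, with 1 count in Dcg > Hpo-RNAi and 11 in Dcg/+, and Ugt86Da, with 9 and 28, passed the minimum only through Dcg/+. Among 3 measured genes of tyrosine breakdown, the pathway of the Zeta enzymes, CG11796 was called lower in both comparisons and none was called higher. CG11796 had 8 counts in Dcg > Hpo, 13 in Dcg > Hpo-RNAi and 36 in Dcg/+. This 1 gene is 33.3% of the list, beside 22.8% of all genes called lower with overexpression and 9.09% with knockdown. The shares of all genes called higher were 18.2% with overexpression and 7.81% with knockdown. Of 8 genes listed with pteridine synthesis, Sptr was called higher in Dcg > Hpo at 2.26 and Pu, which encodes the first enzyme of the pathway, was called lower with 1866 counts in Dcg > Hpo, 6201 in Dcg > Hpo-RNAi and 12157 in Dcg/+, at 0.145 (0.138 to 0.152). Each of these calls is 12.5% of the list, beside 18.2% of all genes called higher and 22.8% called lower. In Dcg > Hpo-RNAi, Pu was called lower at 0.475 (0.461 to 0.490) and so was r, a gene of pyrimidine synthesis, at 0.410. Together they are 25% of the list, beside 9.09% of all genes, and none was called higher, beside 7.81%.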

How the data were processed

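RNA of 3 larval fat body libraries, 1 per genotype, was prepared with the QuantSeq 3′ kit and processed by a service company on the build dm6. As deposited by the authors, each value is a raw count of reads for 1 gene, and the aligner, the counter, its use of strand and its treatment of reads with several matches are not given in the sources used here. Members and gene lists were chosen with earlier results of these data known. Counts were divided by library totals. Intervals (95%) were exact Poisson for counts and Clopper-Pearson for the division of a gene's reads over both libraries of a ratio (scipy 1.17.1). They leave out everything but counting error, and even that assumes that each read is a separate molecule. Genes that reached 10 counts in 1 of the libraries compared were measured, and a call needed a 2-fold difference with an interval that left out 1. A gene under 10 counts in 1 library could be measured only where the other held more, which set the direction of any call. A count of 0 was set to a floor of 3 counts for bounds. Sums of lists were treated in the same way. All members are named; of the fixed lists, only called genes and hpo, cnc, Keap1, Gclc, Gclm, se, gfzf and Mgstl are named, with a few marker genes. Symbols were matched to the Ensembl 115 annotation, which has the dm6 coordinates, for all 34 members. Alternatives were TMM (edgeR 4.0.16), median-of-ratios (DESeq2 1.42.0) and quantile (limma 3.58.1) scaling, the sum of larval fat body markers as scale, other count minimums, folds and interval rules, pseudocounts without an interval, and class sums without the most abundant member. Under quantile scaling, ratios of single genes carried a pseudocount of 1, and a call needed the fold and the count minimum but no interval. The calling rule was tested on simulated counts that held counting error alone and planted differences well past 2-fold. Such data have no spread between libraries, so they cannot test calls near the 2-fold limit or differences between larvae.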

Additional observations from a re-analysis of the deposited data

How the results depend on the processing

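The 58 member ratios that could be formed without a count of 0 kept their direction under TMM, median-of-ratios and quantile scaling and under scaling to the larval fat body markers, a setting chosen after seeing the data, except GstD6 in Dcg > Hpo (quantile), GstD9 and GstE11 in Dcg > Hpo-RNAi (TMM, median of ratios and quantile) and GstD11 in Dcg > Hpo-RNAi, which came to 1 (quantile), none of them called. GstE2 has no ratio and stayed called higher in Dcg > Hpo under all 4 scalings, a call that followed from the count minimum. At a minimum of 50 counts it was not measured. Members called higher in Dcg > Hpo numbered 7 with TMM, 6 at 3-fold and 6 with the interval wholly past 2-fold, against 11, where 15.7%, 12.5% and 11.7% of all genes were, against 18.2%. Members called lower there numbered 3 with TMM, 2 with quantile scaling, 3 at 1.5-fold and 2 with a pseudocount of 1, against 1, where 24.9%, 20.8%, 27.4% and 21.5% of all genes were, against 22.8%. In Dcg > Hpo-RNAi, members called higher numbered 0 at 3-fold, 1 with the interval wholly past 2-fold and 5 with a pseudocount of 1, against 3 (4.12%, 3.28% and 9.10% of all genes, against 7.81%), and members called lower numbered 2 at a minimum of 50 counts, 7 at 1.5-fold, 1 at 3-fold and 2 with the interval wholly past 2-fold, against 4 (5.94%, 14.9%, 5.41% and 4.24% of all genes, against 9.09%).

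Class ratios in Dcg > Hpo under TMM, median-of-ratios and quantile scaling were 1.66, 1.72 and 1.72 for class D, 1.08, 1.12 and 1.13 for E, 0.629, 0.649 and 0.637 for O, 0.497, 0.514 and 0.521 for S, and 0.966, 0.997 and 0.938 for T. In Dcg > Hpo-RNAi they were 1.05, 1.06 and 1.07 for D, 0.899, 0.910 and 0.977 for E, and 0.972, 0.983 and 0.967 for T. TMM and median of ratios gave 0.903 and 0.914 for O and 0.745 and 0.754 for S. Scaling to fat body markers gave 1.82 for D and 1.18 for E in Dcg > Hpo and 0.978 for E in Dcg > Hpo-RNAi. Without its most abundant member, a class had ratios in Dcg > Hpo of 1.42 (D), 1.33 (E), 0.803 (O), 1.01 (T) and 4.91 (Z), and in Dcg > Hpo-RNAi of 0.844 (D), 1.42 (E), 0.901 (O), 0.930 (T) and 0.358 (Z). Class S has 1 gene and gives no such value. No paired analysis was possible because each genotype had 1 library, so no replicate could be left out either. Calls of rare members, such as GstE10 in Dcg > Hpo-RNAi with 2 counts, are limited by depth.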
